A study of Mus musculus with 14 samples.

Results

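The Tsc22 domain family has 4 members in the mouse, Tsc22d1, Tsc22d2, Tsc22d3 and Tsc22d4, and all 4 were taken by symbol from 33006 symbols of the sorted-cell table and from the 20856 symbols shared by the accumbens tables. The samples came from male C57BL/6 mice injected into the peritoneum with morphine sulfate or with saline (mock). Drop-seq, which pairs each cell with a barcoded bead in a droplet, was run on nucleus accumbens from 4 morphine pools and 4 mock pools of 2 mice each, aged 37 to 45 days in replicates 1 and 2 and 78 to 82 days in replicates 3 and 4 of both groups. Bulk RNA-seq was run on oligodendrocytes, the cells that form myelin, taken by flow cytometry from whole brain at an age of 70 days, with 3 morphine and 3 mock libraries. The labels give neither a dose nor a time of collection, and no source says whether each sorted library came from its own mouse, so p-values measure only the spread between these samples.

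The family shares the TSC box and a leucine zipper through which its proteins pair with each other, and several members are made in long and short isoforms. Tsc22d1 was named after its induction by transforming growth factor beta. Tsc22d3, also called GILZ, is induced by glucocorticoid hormones and by FoxO transcription factors, and its protein binds and restrains NF-kB and AP-1. In human cells the long forms of TSC22D1, TSC22D2 and TSC22D4 bind the pseudokinase NRBP1 and act with the WNK kinases, which sense osmotic and chloride changes.

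On GRCm38 (GENCODE vM21, positions counted from 1), Tsc22d1 (ENSMUSG00000022010.19) lies on the plus strand at chr14:76414961-76507765 and Tsc22d2 (ENSMUSG00000027806.9) on the plus strand at chr3:58414715-58466783. Tsc22d3 (ENSMUSG00000031431.13) lies on the minus strand at chrX:140539528-140600659 and Tsc22d4 (ENSMUSG00000029723.16) on the plus strand at chr5:137745730-137768450. Their merged exons span 8994, 11244, 4341 and 7509 bases, and no exon of another annotated gene overlaps them on either strand. The deposited values are per gene, so the isoforms could not be told apart.

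The set of RefSeq promoter windows used here (GRCm38.p6) held 5 starts of Tsc22d1 and 3 of Tsc22d3. It held none of Tsc22d2 or Tsc22d4, so these 2 members were not searched. The 250 bases before each of the 8 starts were searched on both strands for the glucocorticoid receptor palindrome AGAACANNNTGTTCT, its core repeat TGTTCT and the forkhead core GTAAACA. The palindrome and the forkhead core matched in 0 of 8 windows, against 0.00913% and 3.17% of all 32851 windows of this length. The repeat, which each palindrome also contains, matched in 2 of 8, against 16.1% of all windows. The stretches that follow show where that repeat lies beside the gene of the family best known as a hormone target. They are the annotated exon-free part of the windows of all 3 Tsc22d3 starts and of the 1 Tsc22d1 start with a match, 5′ to 3′ along each gene, with the repeat in capitals.
Tsc22d3, chrX:140600660-140600772, minus strand, start at 140600522: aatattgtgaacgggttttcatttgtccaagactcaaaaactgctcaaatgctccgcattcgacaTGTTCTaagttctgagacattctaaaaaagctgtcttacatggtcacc
Tsc22d3, chrX:140548572-140548821, minus strand, start at 140548571: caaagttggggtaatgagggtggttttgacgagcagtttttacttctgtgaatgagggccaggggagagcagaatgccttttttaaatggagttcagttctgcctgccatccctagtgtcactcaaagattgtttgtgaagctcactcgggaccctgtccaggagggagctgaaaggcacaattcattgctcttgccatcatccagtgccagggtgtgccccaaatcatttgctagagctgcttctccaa
Tsc22d3, chrX:140542669-140542845, minus strand, start at 140542668: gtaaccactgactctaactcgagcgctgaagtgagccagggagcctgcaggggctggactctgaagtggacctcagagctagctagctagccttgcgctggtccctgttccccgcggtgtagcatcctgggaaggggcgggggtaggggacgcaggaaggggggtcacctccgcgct
Tsc22d1, chr14:76503976-76504213, plus strand, start at 76504226: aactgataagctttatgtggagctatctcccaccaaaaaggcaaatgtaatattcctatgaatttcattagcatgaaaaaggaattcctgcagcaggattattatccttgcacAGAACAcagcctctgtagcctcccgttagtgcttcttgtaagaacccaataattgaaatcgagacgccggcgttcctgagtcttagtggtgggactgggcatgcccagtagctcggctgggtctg
The match begins 185 bases before the farthest upstream start of Tsc22d3 and 137 bases before an internal start of Tsc22d1, where it reads AGAACA on the gene's strand. A match is a string of letters and not a bound site, and no binding data were used here.

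In the sorted oligodendrocytes 3 of the 4 members rose after morphine: Tsc22d1 by 1.59-fold, Tsc22d3 by 1.36-fold and Tsc22d4 by 1.25-fold. Tsc22d2 did not pass. Of all 15751 genes tested, 8.09% were called higher in morphine and 14.8% in either direction, by edgeR's quasi-likelihood test at a Benjamini-Hochberg adjusted p under 0.05. The libraries held 18306640 to 23456702 reads in genes after morphine and 14989118 to 21564115 after saline, and each member had 591 to 2916 reads in each library.

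Tsc22d1 had 68.7, 73.1 and 76.8 CPM (reads of the gene per 1000000 reads in genes) in morphine libraries, against 49.5, 39.4 and 50.3 CPM in mock libraries. Every morphine library lay above every mock library. The means were 72.9 ± 4.03 CPM in morphine and 46.4 ± 6.07 CPM in mock libraries (SD, n = 3 each), and the log2 fold change of 0.67 (SE 0.080) had an edgeR adjusted p of 2.10e-06.

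Tsc22d3 had 112, 114 and 124 CPM in morphine libraries, against 88.7, 75.0 and 97.0 CPM in mock libraries. The groups did not overlap, and the mock library with the fewest reads in genes was the lowest, as it also was for Tsc22d1 and Tsc22d4. That library had the largest share of reads in no gene, at 74.3%. The means were 117 ± 6.81 CPM in morphine and 86.9 ± 11.1 CPM in mock libraries (SD, n = 3 each), with a log2 fold change of 0.45 (SE 0.075, edgeR adjusted p = 0.000153).

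Tsc22d4, known in mouse liver as a regulator of lipid and glucose metabolism, had 84.1, 98.1 and 96.9 CPM in morphine libraries, against 77.5, 73.0 and 76.8 CPM in mock libraries. The groups did not overlap, and the morphine library at 84.1 CPM was the closest to the mock libraries. The means were 93.0 ± 7.75 CPM in morphine and 75.8 ± 2.42 CPM in mock libraries (SD, n = 3 each), with a log2 fold change of 0.32 (SE 0.065, edgeR adjusted p = 0.00122).

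Tsc22d2, a member with a long isoform of the NRBP1-binding kind, had 66.1, 62.3 and 65.6 CPM in morphine libraries, against 72.5, 71.7 and 64.1 CPM in mock libraries. These ranges overlapped. Its log2 fold change was -0.077 (SE 0.070, edgeR adjusted p = 0.559). Groups without overlap and higher in morphine were found for 3 of 4 members and for 13.1% of all genes tested. The authors' deposited table gives log2 fold changes of 0.68 for Tsc22d1, 0.46 for Tsc22d3, 0.34 for Tsc22d4 and -0.047 for Tsc22d2.

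**Figure D1:**
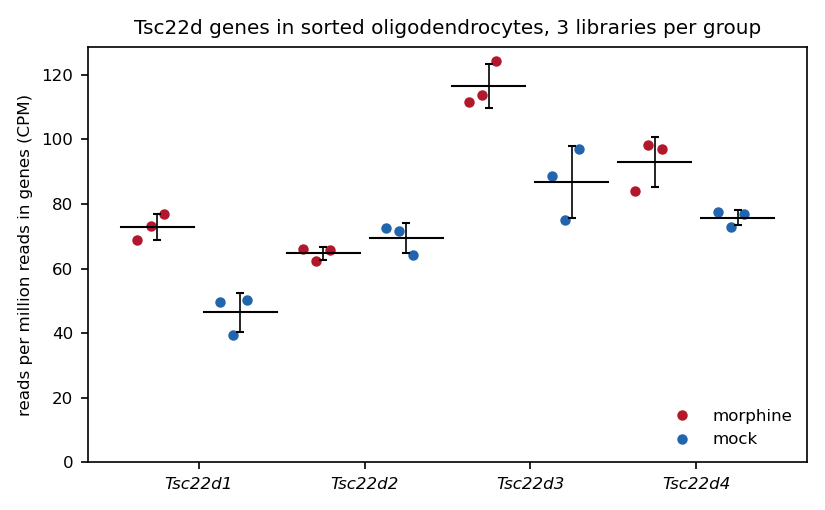
CPM of the 4 Tsc22d genes in sorted oligodendrocytes, 1 point per library, morphine left and mock right, with the mean and SD. The morphine points of Tsc22d1, Tsc22d3 and Tsc22d4 all lie above the mock points, and those of Tsc22d2 overlap.

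Divided by the length of the merged exons, the levels can be set beside each other. In morphine libraries Tsc22d3 stood highest at 26.8 ± 1.57 RPKM (CPM per kilobase of merged exons), then Tsc22d4 at 12.4 ± 1.03, Tsc22d1 at 8.10 ± 0.448 and Tsc22d2 at 5.75 ± 0.182 RPKM (SD, n = 3). In mock libraries the order was Tsc22d3 at 20.02 ± 2.56, Tsc22d4 at 10.1 ± 0.323, Tsc22d2 at 6.18 ± 0.415 and Tsc22d1 at 5.16 ± 0.675 RPKM (SD, n = 3). Tsc22d1 thus stood above Tsc22d2 after morphine, at 7.64 to 8.54 against 5.54 to 5.88 RPKM, and below it after saline, at 4.38 to 5.60 against 5.70 to 6.45 RPKM. Which isoform is made would change these lengths.

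In a bulk sort, fewer cells of a type and less RNA per cell cannot be told apart. The summed level of 8 oligodendrocyte markers was 12498 to 12916 CPM in morphine and 10912 to 11691 CPM in mock libraries, and 2 of the 8 rose and 3 fell. Mobp, a myelin protein gene, had 5000.3 ± 106 CPM in morphine and 3397 ± 77.3 CPM in mock libraries (SD, n = 3 each), and without it the other 7 summed to 7531 to 7797 CPM in morphine and 7601 to 8230 CPM in mock libraries. The summed level of 8 endothelial markers, the class with the most Tsc22d1 in the accumbens, was lower after morphine, at 36.2 to 47.8 CPM against 54.2 to 56.9 CPM in mock libraries, and 3 of the 8 fell. The markers of oligodendrocyte precursors, which held much Tsc22d1 and Tsc22d4 in the accumbens, summed to 19.99 to 22.8 CPM in morphine and 17.7 to 17.97 CPM in mock libraries, with 1 of 5 tested up and 0 down. Newly formed oligodendrocytes held still more Tsc22d4 there. Their 8 markers summed to 2301 to 2431 CPM in morphine and 2036 to 2061 CPM in mock libraries, with 2 up and 3 down. Of these sums Nfasc made up 1905 ± 58.5 CPM in morphine and 1505 ± 29.7 CPM in mock libraries (SD, n = 3 each). Astrocyte marker sums overlapped, at 178 to 194 CPM in morphine and 168 to 199 CPM in mock libraries, with 2 of 8 up and 1 down. Neuroblast marker sums were 114 to 134 CPM in morphine and 38.1 to 51.3 CPM in mock libraries, of which Tubb3, a neuronal tubulin, made up 118 ± 10.4 and 35.4 ± 8.01 CPM (SD, n = 3 each) and was the 1 of 6 tested that was called. No marker found of any of the 16 lists was at 0 in all libraries, and the part of other cell types in the members' differences was not tested.

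In the accumbens each member had its own pattern over cell types. Of 32533 cells kept, 29614 fell into 16 classes, each named from marker genes and meaning cells that resemble that type. The pools held 6910203 to 22763690 UMIs after morphine and 8035890 to 24668659 after saline. The UMIs (unique molecular identifiers) count captured transcripts, and levels are CPM of the UMIs summed per pool and class. The 4 genes were left out of the genes used for clustering and of every marker list. Class differences are a description with no test, because the classes came from the same cells.

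Tsc22d1 was highest in endothelial cells, at 1688 ± 198 CPM in morphine and 1870 ± 292 CPM in mock pools (SD, n = 4 each), above all other classes with no overlap. Mural cells had 631 ± 80.8 and oligodendrocyte precursors 796 ± 105 CPM in morphine pools, against 727 ± 173 and 707 ± 153 CPM in mock pools. The neurons followed, with 568 ± 78.03 CPM in D1 and 546 ± 86.4 CPM in D2 medium spiny neurons in morphine pools, against 550 ± 25.2 and 548 ± 51.3 CPM in mock pools. The levels of neighbours from D1 neurons down to microglia overlapped. Oligodendrocytes were lowest, at 99.2 ± 29.96 CPM in morphine and 93.7 ± 8.93 CPM in mock pools, and in mock pools their highest pool, at 106 CPM, lay below the lowest microglia pool, at 126 CPM.

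Tsc22d4 had another order. Oligodendrocytes were highest, at 1700 ± 239 CPM in morphine and 1465 ± 244 CPM in mock pools (SD, n = 4 each). Astrocytes had 1164 ± 306 and newly formed oligodendrocytes 1282 ± 169 CPM in morphine pools, against 1022 ± 216 and 1009 ± 141 CPM in mock pools, and in mock pools oligodendrocytes overlapped with astrocytes and astrocytes with newly formed oligodendrocytes. Oligodendrocyte precursors came next, at 816 ± 174 CPM in morphine and 541 ± 107 CPM in mock pools, apart from the classes above and below them in mock pools. Endothelial cells had 78.6 ± 18.2 CPM in morphine and 78.6 ± 14.9 CPM in mock pools. Neurons of all 4 classes lay at 23.9 to 44.1 CPM in morphine and 31.6 to 43.8 CPM in mock pools on average.

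Tsc22d3 was highest in astrocytes, endothelial cells and the ventricle lining. Astrocytes, endothelial cells and ependymal cells led the order, at 1056 ± 176, 574 ± 156 and 853 ± 204 CPM in morphine pools, against 519 ± 135, 497 ± 152 and 402 ± 151 CPM in mock pools (SD, n = 4, but 3 mock pools for ependymal cells, which had under 10 cells in mock pool 3). Oligodendrocytes held 186 ± 34.9 CPM in morphine and 189 ± 33.3 CPM in mock pools. D1 and D2 medium spiny neurons were lowest, at 32.7 ± 14.1 and 29.0 ± 10.6 CPM in morphine and 27.0 ± 9.23 and 20.9 ± 2.98 CPM in mock pools. Neighbours in the mock order overlapped at every step.

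Tsc22d2 was low in all classes, at class means of 21.3 to 99.1 CPM in morphine and 15.6 to 73.1 CPM in mock pools, and neighbours overlapped at every step. It passed the filter on low counts in 10 of 16 classes, against 15 for Tsc22d1, 13 for Tsc22d3 and 14 for Tsc22d4. These are 52 pairs of a member and a class in all.

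**Figure D2:**
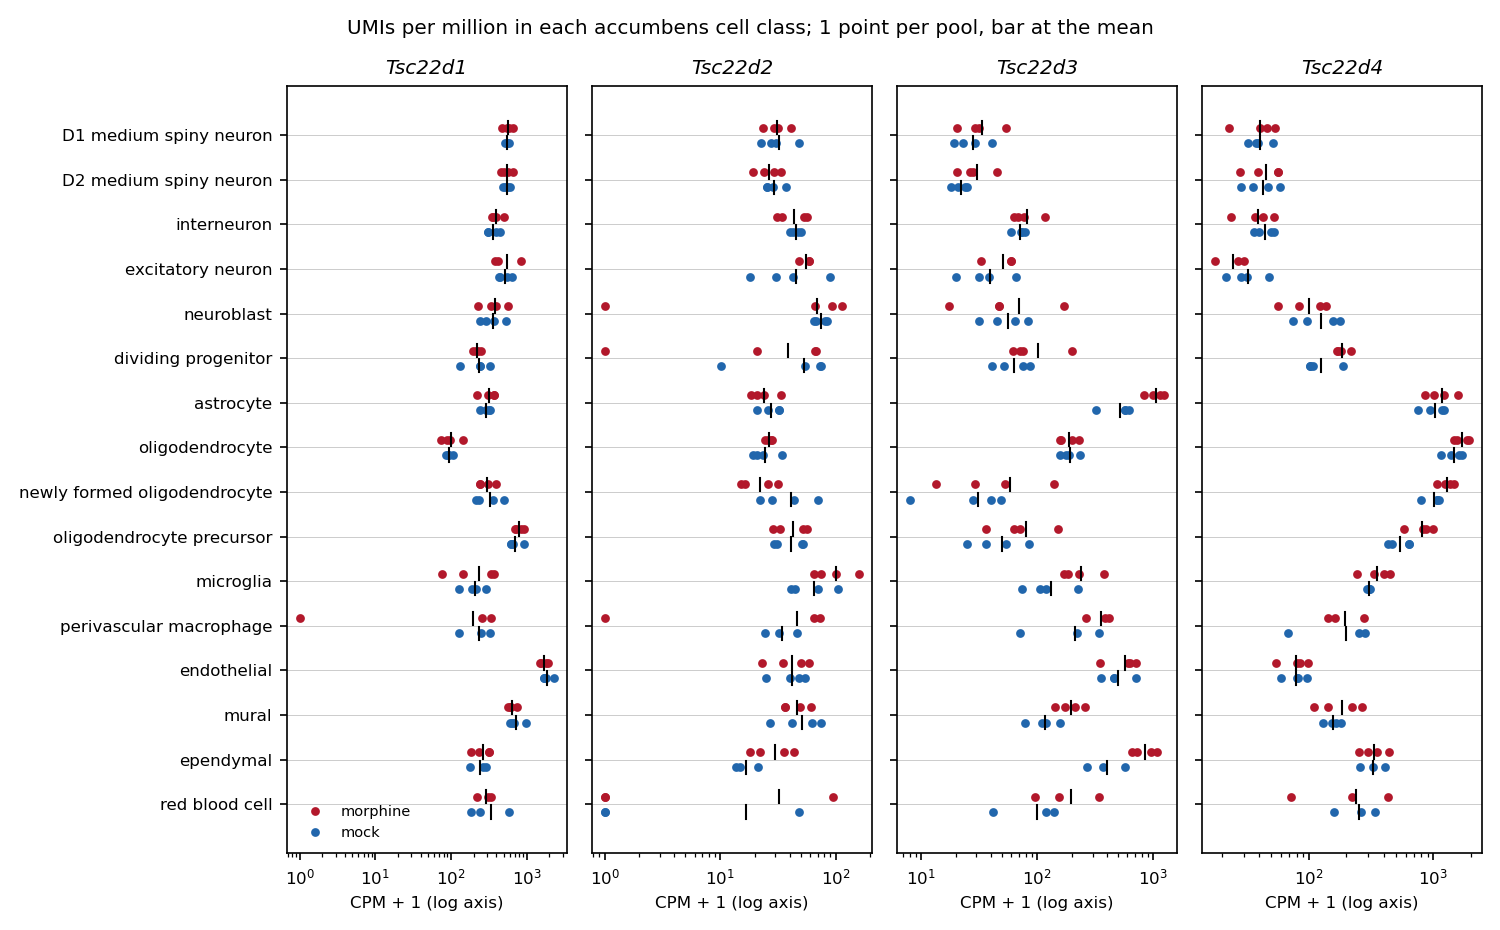
CPM of UMIs plus 1 (log axis) of each Tsc22d gene in 16 accumbens cell classes, 1 point per pool, morphine above mock, with a bar at the mean. Tsc22d1 is highest in endothelial cells and lowest in oligodendrocytes, Tsc22d4 highest in oligodendrocytes, Tsc22d3 highest in astrocytes, and Tsc22d2 low throughout.

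The genes most like each member were ranked by Pearson's r over the 16 class means in mock pools on the log2(CPM + 1) scale, among 12700 genes. The points share libraries and clustering, so r is a description. Tsc22d1 was most like Ece1, an endothelin-converting enzyme (r = 0.887), then Abhd2, Cd200, Sorbs2 and Rarg. Tsc22d4 was most like Qk, an RNA-binding protein of glia (r = 0.922), then Psat1, Rab31, Abhd4 and Rnf13. Tsc22d3 was most like Gstm1, a glutathione transferase (r = 0.876), then Pon2, Selenbp1, Anxa5 and Tmem35b. Tsc22d2 was most like Copa, a coat protein of transport vesicles (r = 0.947), then Nfkbil1, Kdm4c, Gon4l and Nsd3. The mock level of Tsc22d2 rested on 2 UMIs in red blood cells, 4 in perivascular macrophages and 5 in ependymal cells. The part of such classes in its r was not tested. Among the members themselves r lay between -0.506, for Tsc22d1 with Tsc22d4, and 0.389, for Tsc22d3 with Tsc22d4.

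The comparison of morphine with mock in the accumbens asks whether the members change in the cells of one brain region. No member passed in any class: 0 of the 52 pairs had an edgeR adjusted p under 0.05, 4 pairs of Tsc22d3 and 2 of Tsc22d4 had an unadjusted p under 0.05, against 2.6% of all genes and classes tested, and DESeq2 called 1 pair, against 0.0128% of all genes and classes. Of all genes, 0% were called in 15 of the 16 classes and 0.0799% in oligodendrocytes. Tsc22d3 had positive log2 fold changes in 13 of the 13 classes tested, Tsc22d4 in 11 of 14, Tsc22d1 in 9 of 15 and Tsc22d2 in 5 of 10. For Tsc22d3 these include oligodendrocytes at 0.029 (SE 0.189), a value whose sign changed in 5 of 19 alternatives. The share of all genes with such signs was not counted, so these counts are a description only. The classes of a pool share its libraries and are not independent.

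In astrocytes Tsc22d3 had 1143, 835, 1004 and 1241 CPM in morphine pools 1 to 4, against 319, 573, 619 and 566 CPM in mock pools 1 to 4, from 279 to 1255 UMIs per pool. The groups did not overlap, as for 0.666% of genes tested there that were higher in morphine. The log2 fold change was 1.10 (SE 0.237), with an unadjusted p of 0.000324, rank 3 of 9757 genes, and an edgeR adjusted p of 0.999. DESeq2 called it with an adjusted p of 0.0229, as it did 0.0162% of all genes there, and edgeR without the filter on low counts with 0.0180, as it did 0.0324%. Among the younger pools it was 1.16, and among the older pools 1.05.

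The astrocyte class joined 3 clusters with unlike levels of Tsc22d3. The main cluster, led by Gja1 and Aldoc, had 1300 ± 260 CPM in morphine and 630 ± 154 CPM in mock pools (SD, n = 4 each). The cluster led by Sfrp1 and Igfbp5 had 447 ± 174 CPM in morphine and 184 ± 34.9 CPM in mock pools (SD, n = 4 each). Both had every morphine pool above every mock pool. The smallest, led by Agt and Slc6a11, had 1518 ± 191 CPM in 3 morphine pools and 1131 ± 170 CPM in 4 mock pools (SD), with overlap. Among astrocytes thinned to 1000 UMIs, 58.9% ± 4.41 held a Tsc22d3 UMI in morphine and 39.2% ± 10.3 in mock pools (SD, n = 4 each), with 403 and 445 shallower cells left out. Unthinned, the shares were 70.7% ± 4.49 in morphine and 49.6% ± 11.7 in mock pools.

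Mitochondrial RNA moved with the groups in this class, at 8.36% to 10.7% of UMIs in morphine and 5.04% to 5.85% in mock pools. With mitochondrial genes left out, an alternative chosen after seeing the data, the log2 fold change of Tsc22d3 was 1.11. Astrocyte markers summed to 11150 to 16170 CPM in morphine and 10617 to 18065 CPM in mock pools.

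In ependymal cells, which line the ventricles, Tsc22d3 had 1087, 649, 957 and 719 CPM in morphine pools 1 to 4, against 269, 371 and 567 CPM in mock pools 1, 2 and 4, from 28 to 137 UMIs per pool. The groups did not overlap, as for 2.13% of genes tested there that were higher in morphine. The log2 fold change was 1.22 (SE 0.278, unadjusted p = 0.000444, edgeR adjusted p = 0.720), and edgeR without the filter on low counts gave an adjusted p of 0.00540, where 0.0256% of genes were called. It was 1.48 in the younger pools and 0.67 in the older pools, where the 1 mock pool is assumed to vary like the others. Mitochondrial RNA was 5.85% to 11.0% of UMIs in morphine and 3.93% to 5.02% in mock pools, and the log2 fold change without these genes was 1.22.

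Mural cells had 141 to 259 CPM of Tsc22d3 in morphine and 77.8 to 157 CPM in mock pools (log2 0.79, SE 0.307, edgeR adjusted p = 1.00), and microglia 171 to 372 CPM in morphine and 73.6 to 224 CPM in mock pools (log2 0.89, SE 0.384, edgeR adjusted p = 1.00). Both ranges overlapped. Mitochondrial RNA was 6.56% to 7.72% of mural UMIs in morphine and 3.83% to 6.13% in mock pools, without overlap, and 4.63% to 8.02% of microglial UMIs in morphine and 3.18% to 6.21% in mock pools; its part in these values was not tested. Endothelial cells had 350 to 713 CPM in morphine and 357 to 714 CPM in mock pools (log2 0.28, SE 0.276). In all cells summed Tsc22d3 had 220, 133, 184 and 126 CPM in morphine pools, against 124, 121, 129 and 83.7 CPM in mock pools (log2 0.61, SE 0.195, edgeR adjusted p = 1.00), with morphine pool 4 inside the mock range.

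**Figure D3:**
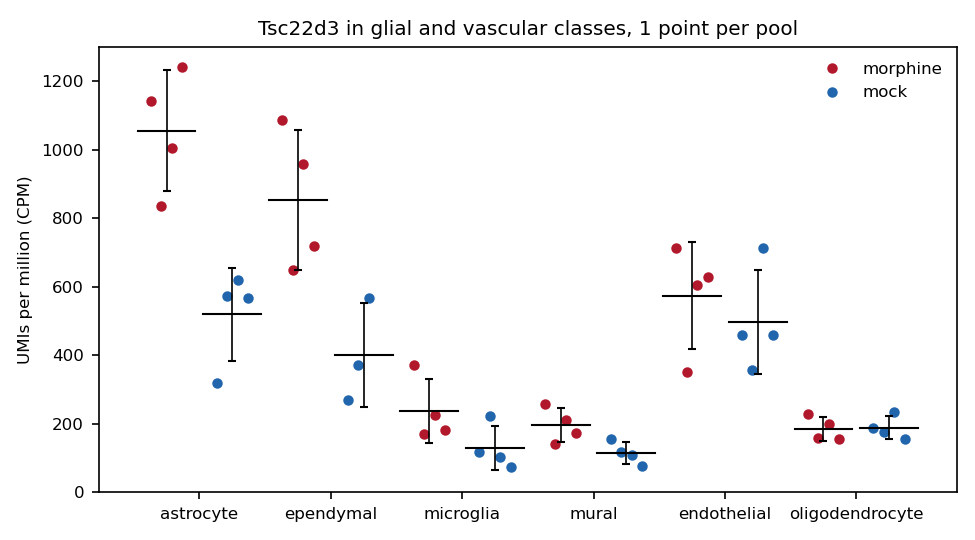
Tsc22d3 CPM of UMIs in 6 accumbens cell classes, 1 point per pool, morphine left and mock right, with the mean and SD. In astrocytes and ependymal cells the morphine pools lie above the mock pools, and in oligodendrocytes the groups coincide at 157 to 229 CPM in morphine and 157 to 235 CPM in mock pools.

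In the oligodendrocytes of the accumbens Tsc22d3 had 229, 158, 200 and 157 CPM in morphine pools 1 to 4, against 189, 177, 235 and 157 CPM in mock pools 1 to 4. The groups overlapped almost fully, and the log2 fold change was 0.029 (SE 0.189, edgeR adjusted p = 1.00), against 0.45 (SE 0.075) in the sorted cells. The sorted cells differ in tissue (whole brain), age (70 days) and method (bulk RNA-seq). The accumbens class joined 3 clusters. The one led by Ptgds and Il33 had 183 ± 22.8 CPM in morphine and 180 ± 44.2 CPM in mock pools, the one led by Klk6 and Apod 136 ± 34.5 and 203 ± 49.4 CPM, and the one led by Opalin and Mag 275 ± 82.7 and 203 ± 34.0 CPM in the same order (SD, n = 4 each). The groups overlapped in all 3, and the direction differed between the second and the third. The cluster led by Ptgds held 71.9% to 80.5% of the class in morphine and 62.0% to 71.7% in mock pools. Thinned to 1000 UMIs, 16.1% ± 3.66 of oligodendrocytes held a Tsc22d3 UMI in morphine and 16.3% ± 3.41 in mock pools (SD, n = 4 each, exact permutation p = 1.00, two-sided, smallest possible 0.0286), with 216 and 202 shallower cells left out. D1 medium spiny neurons, the class with nearly the least of this RNA, showed 3.798% ± 1.64 in morphine and 2.64% ± 0.495 in mock pools at the same depth. Unthinned, the oligodendrocyte shares were 29.6% ± 3.01 in morphine and 32.5% ± 6.58 in mock pools.

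Whether the response of Tsc22d3 differed between cell types was asked of an interaction between class and treatment, with the pool as a block. The log2 fold change of oligodendrocytes minus that of astrocytes was -1.06 (SE 0.230, unadjusted p = 0.000176) and did not pass, with an edgeR adjusted p of 0.622 over 10613 genes, of which 0% were called. Oligodendrocytes minus ependymal cells gave -1.05 (SE 0.280, edgeR adjusted p = 1.00), where 0.0132% were called. Over all members and classes 0 of 60 such terms passed, against 0.00451% of all genes and classes.

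Tsc22d4 in oligodendrocytes had 1450, 1545, 1866 and 1940 CPM in morphine pools 1 to 4, against 1154, 1396, 1602 and 1707 CPM in mock pools 1 to 4. Each morphine pool lay above the mock pool of its own number, which had the same ages, while the groups overlapped. In both groups the older pools, 3 and 4, lay above the younger pools, 1 and 2. The cluster led by Ptgds, whose share of the class was larger after morphine, had 1803 ± 282 CPM in morphine and 1574 ± 292 CPM in mock pools, the one led by Klk6 1365 ± 178 and 1126 ± 241 CPM, and the one led by Opalin 1734 ± 220 and 1623 ± 84.1 CPM in the same order (SD, n = 4 each). Mitochondrial RNA was 4.82% to 8.15% of the class's UMIs in morphine and 3.13% to 4.51% in mock pools. The part of both in the values of Tsc22d4 was not tested. The log2 fold change was 0.28 (SE 0.177, edgeR adjusted p = 1.00). Same-numbered pools deviated together in this class, and with the replicate number as a block Tsc22d4 had 0.28 (SE 0.094, adjusted p = 0.184), while the calls over all genes numbered 141, against 7 without it. Leaving out mock pool 4 gave 11 calls and each of morphine pools 1, 3 and 4 and mock pools 1, 2 and 3 gave 0.

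In oligodendrocyte precursors Tsc22d4 had 581 to 996 CPM in morphine and 432 to 634 CPM in mock pools (log2 0.65, SE 0.218, unadjusted p = 0.00676, edgeR adjusted p = 0.999). Dividing progenitors had 168 to 217 CPM in morphine and 102 to 187 CPM in mock pools (log2 0.67, SE 0.267, edgeR adjusted p = 1.00), from 11 to 59 UMIs per pool. Newly formed oligodendrocytes had 1073 to 1463 CPM in morphine and 799 to 1098 CPM in mock pools (log2 0.41, SE 0.221, edgeR adjusted p = 0.998). All 3 classes overlapped between the groups.

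Tsc22d1, which rose in the sorted cells, had 72.0 to 142 CPM in morphine and 85.7 to 106 CPM in mock pools in accumbens oligodendrocytes, with a log2 fold change of 0.13 (SE 0.195, edgeR adjusted p = 1.00). In endothelial cells, where it was highest, the log2 fold change was -0.068 (SE 0.209). Over the 15 classes tested it lay between -0.23 and 0.22. Tsc22d2 lay between -0.063 and 0.67 over 10 classes, and the highest, in microglia, rested on 79 UMIs in morphine and 70 in mock pools.

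**Figure D4:**
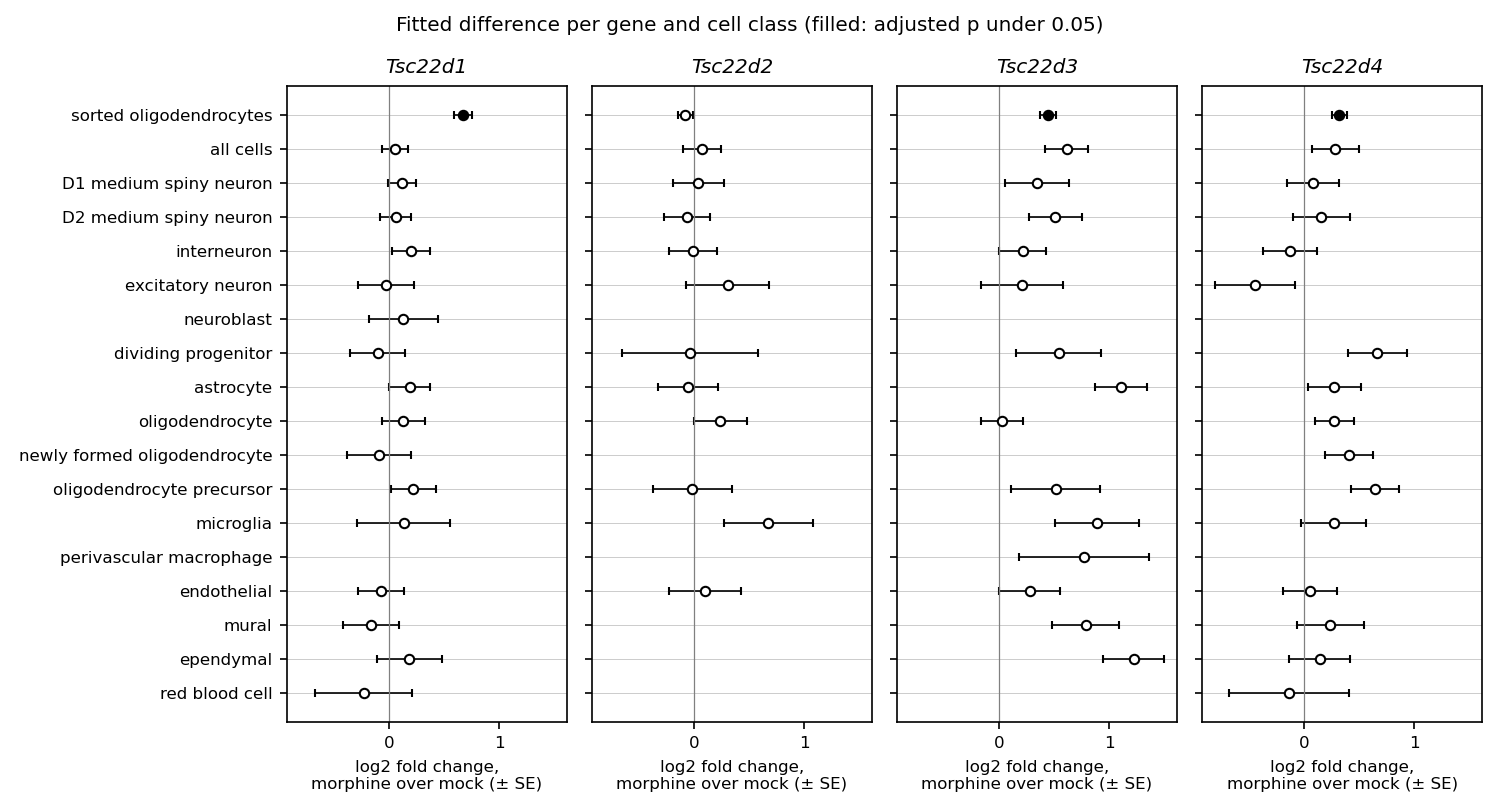
Fitted log2 fold change, morphine over mock, of each Tsc22d gene with its SE in the sorted oligodendrocytes, in all accumbens cells and per class. Filled points have an edgeR adjusted p under 0.05; they are Tsc22d1, Tsc22d3 and Tsc22d4 in the sorted cells, and all other points are open.

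In the sorted cells 4 lists of genes around the family were counted. The lists were chosen with earlier results of these data known, so the counts are a description and not independent support. The list of glucocorticoid-induced genes, the hormone targets to which Tsc22d3 is commonly added, held 16 genes, of which 15 were tested. All 15 rose, where 8.09% of all genes were called higher. Their median log2 fold change was 1.80 against -0.021 over all genes. Cdkn1a, the gene of the p21 brake on cell division, had 289 ± 22.8 CPM in morphine and 6.54 ± 0.868 CPM in mock libraries, and Sgk1, a kinase of salt balance, 1601 ± 89.4 and 103 ± 9.12 CPM (SD, n = 3 each). Fkbp5, a cochaperone that damps the hormone receptor, rose by 3.48 and Nfkbia, the inhibitor of NF-kB, by 2.77 on the log2 scale. The lowest of the 15 was Zfp36, an RNA-binding factor, at 0.83 (chosen after its values were seen), so the 0.45 of Tsc22d3 lay below every one of them.

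Of 10 genes of the NRBP-WNK module 3 rose and 1 fell, where 8.09% of all genes were called higher and 14.8% in either direction. Stk39, which encodes the kinase SPAK that WNKs activate, rose by 0.58 (SE 0.055, edgeR adjusted p = 8.62e-08), with 278 ± 8.22 CPM in morphine and 189 ± 8.94 CPM in mock libraries (SD, n = 3 each). Wnk2 rose by 0.88 and Slc12a2, the chloride importer that SPAK activates, by 0.26. Wnk1, the most abundant of the WNK kinases here in reads, fell by 0.28 (SE 0.045, edgeR adjusted p = 7.16e-05), with 1743 ± 43.6 CPM in morphine and 2159 ± 6.48 CPM in mock libraries. The binding partners Nrbp1 and Nrbp2, named after their values were seen, did not pass, at -0.12 and 0.036, and the list's median was 0.046.

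Of 10 partners of the Tsc22d3 protein 2 rose and 1 fell, where 8.09% of all genes were called higher and 14.8% in either direction. Those that rose were Sgk1, counted above, and Mdm2, a ligase that degrades p53, by 0.35. Jun, a subunit of AP-1, fell by 0.58 (SE 0.081, edgeR adjusted p = 1.63e-05); an exon of its antisense neighbour overlaps it, and the 2 cannot be told apart without strand. Rela, a subunit of NF-kB named after its value was seen, had -0.16 (edgeR adjusted p = 0.194). Of 12 genes of TGF-beta signalling 3 rose and 0 fell, beside the same 8.09% and 14.8%: Smad3, a signal carrier of the pathway, by 1.44, Tgfb3, a ligand, by 0.99, and Smad7, an inhibitor of the pathway, by 0.65. The medians were 0.18 for the partners and 0.089 for the TGF-beta genes, against -0.021 over all genes. Exons of Cdkn1a, Tgfb3, Zfp36, Nrbp1 and Nrbp2 also overlap genes on the other strand.

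In accumbens oligodendrocytes 1 of 15 glucocorticoid-induced genes rose, where 0.0799% of all genes were called in either direction. It was Cdkn1a, by 2.52 (SE 0.414, edgeR adjusted p = 0.0261), and the list's median was 0.54 against -0.0098 over all genes. Left out in turn, each of morphine pools 1, 3 and 4 and mock pools 1, 2 and 3 took the count to 0, while without mock pool 4 it was 2 and with the replicate number as a block 7. That list had a median of 0.36 in astrocytes, against -0.010 over all genes, with 0 of 15 called, against 1 with DESeq2, 2 without the filter on low counts and 1 with classes by marker score. There Tsc22d3, at 1.10, stood below Cdkn1a at 1.73 and Fkbp5 at 1.36 and close to Zbtb16, a transcription factor named after its value was seen, at 1.10; none of these passed. In accumbens oligodendrocytes Tsc22d3, at 0.029, stood below 13 of the 15. The other 3 lists had 0 called in both classes, but with the replicate block, and likewise without the filter on low counts, 1 of the Tsc22d3 partners was called higher in oligodendrocytes.

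**Figure D5:**
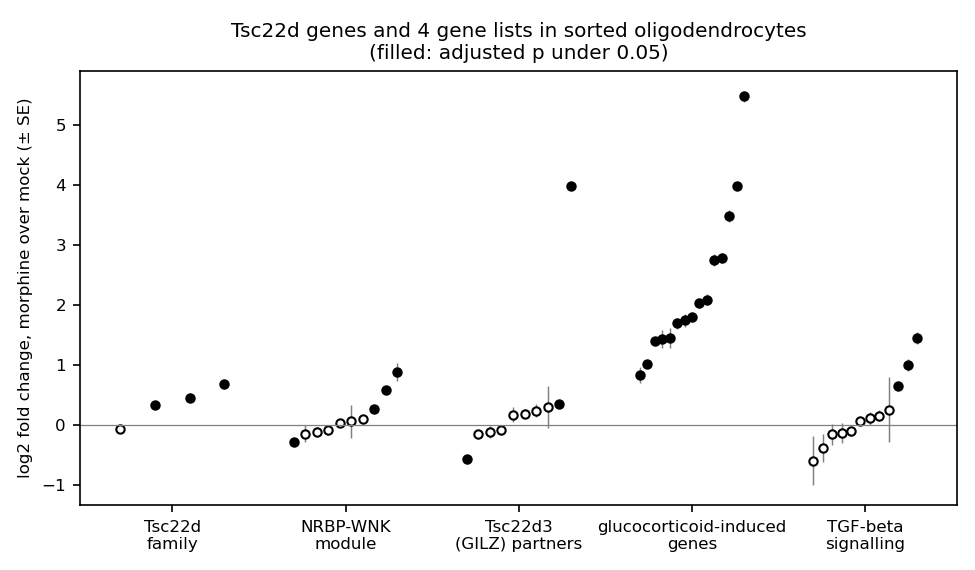
Log2 fold changes, morphine over mock, with SE, of the 4 Tsc22d genes and of 4 gene lists in sorted oligodendrocytes, ordered within each group; filled points have an edgeR adjusted p under 0.05. All 15 glucocorticoid-induced genes tested are filled and lie at 0.83 or more, and the 3 filled Tsc22d genes lie between 0.32 and 0.67. The lists were chosen with earlier results of these data known.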

How the data were processed

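The accumbens values are deposited counts of UMIs per gene and barcode, made with the Drop-seq DigitalExpression program per the file headers; the sorted values are deposited counts of reads per gene. STAR 2.4.2a, Trimmomatic 0.36, HTSeq, DESeq and DESeq2 are named in the submitters' processing notes, without roles. The authors' deposited comparison table gives log2 fold changes, p-values, a mean signal and a test score per gene. Rows that name no gene held 69.5% to 74.3% of the sorted reads and were left out of library sizes. The sorted RNA was amplified before sequencing, per the labels' protocols, so reads are not independent molecules.

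Of 36000 barcodes, 47 occurred in more than 1 library. The filters (300 or more genes, mitochondrial UMIs at 20% or less) left 33216, and Scrublet called 683 doublets (2.06%, but under 0.5% in 5 of the 8 pools, where it did not work). All 33216 were clustered with scanpy 1.11.5 (2000 variable genes, 30 components, Leiden resolution 1). The called doublets were left out after clustering, which left 32533 cells. Clusters were named from marker lists, with the naming thresholds chosen after seeing the data; a cell also needed 2 UMIs of its class's list, and 5.71% of cells stayed unnamed (6.61% in morphine, 4.86% in mock pools). UMIs were summed per pool and class (at least 10 cells a pool, 3 pools a group) and tested with edgeR 4.0.16's quasi-likelihood test (TMM, filterByExpr, adjusted p under 0.05, Benjamini-Hochberg over all genes tested), as were the sorted counts. Levels are CPM, and RPKM uses merged GENCODE vM21 exons. The members and all lists were chosen with earlier results of these data known. Named list genes are the called ones, at most 4 a direction by p; the 5 genes of highest r, with at least 20 CPM in 1 class, stand for each member's likeness.

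On simulated data with 200 genes changed 2-fold, the test recovered 73.5% in the sorted design, 36% in astrocytes and 60.5% in oligodendrocytes. These rates hold for that setting, and the called members changed by less than 2-fold. They are not the power of the tests on the members. Alternatives were DESeq2 1.42.0, other size factors, no filter, other depths, gates and class rules, age groups, a replicate block and leaving out each sample; values per cluster and without mitochondrial genes were added after seeing the data. Deviations of same-numbered pools correlated at 0.24, 0.18, 0.31 and 0.45 in oligodendrocytes, each pool best with its own number. In astrocytes (-0.26 to 0.39) and in all cells summed (-0.038 to 0.73) morphine pools 1 and 4 were best with their own number. Morphine pools 2 and 3 were not. No sorted library, numbered by its column, was best with its own number (-0.12 to -0.0069). Same-numbered pools also had the same ages and numbers of barcodes. The labels do not say whether they were paired, so the replicate block was an alternative.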

Additional observations from a re-analysis of the deposited data

Results flagged for a closer look

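In 4 of 99 groups of 4 pools that were checked, 1 pool stood apart from the other 3 by Dixon's criterion at the 95% level, which chance exceeds in about 1 group in 20. Tsc22d3 in dividing progenitors had 198 CPM in morphine pool 1, from 10 UMIs, against 61.5 to 74.0 CPM in the other morphine pools. Tsc22d4 in dividing progenitors had 187 CPM in mock pool 3, from 13 UMIs, against 102 to 108 CPM in the other mock pools. Tsc22d4 in newly formed oligodendrocytes had 799 CPM in mock pool 1, from 88 UMIs, against 1063 to 1098 CPM in the other mock pools. Tsc22d1 in oligodendrocyte precursors had 935 CPM in mock pool 2, from 264 UMIs, against 614 to 656 CPM in the other mock pools.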

How the results depend on the processing

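The 3 members called in sorted oligodendrocytes were called under all 11 alternatives, with log2 fold changes of 0.57 to 0.74 for Tsc22d1, 0.36 to 0.53 for Tsc22d3 and 0.29 to 0.38 for Tsc22d4 when 1 library was left out. In the accumbens, 0 called pairs of member and class became 1 with DESeq2 and 2 without the filter on low counts: Tsc22d3 in astrocytes at 1.11 (DESeq2 adjusted p = 0.0229) and 1.09 (edgeR adjusted p = 0.0180), and in ependymal cells at 1.30 without the filter (0.00540). Genes called in oligodendrocytes went from 7 to 27 with DESeq2, 61 without the filter, 141 with the replicate block, 4 in the younger pools, 0 in the older pools, 0 with classes by marker score, and 0 to 11 when 1 pool was left out. The replicate block changed no call of a member, in the sorted cells or in any class.

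Values near 0 changed sign. Tsc22d3 in oligodendrocytes was -0.087 in the older pools and -0.072 to 0.20 when 1 pool was left out. The difference in the share of oligodendrocytes with a Tsc22d3 UMI ran from -1.76 to 0.879 percentage points when 1 pool was left out. Under the other alternatives that difference ran from -2.85 to -0.064 percentage points. Tsc22d4 in astrocytes was -0.027 in the younger pools. In the older pools Tsc22d1 was 0.18 in endothelial cells, -0.079 in astrocytes and -0.10 in oligodendrocytes, and with 1 pool left out it ran from -0.16 to 0.047 in endothelial cells and from -0.061 to 0.26 in oligodendrocytes. The cause was not tested. Few UMIs limit Tsc22d2 and the small classes.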
